A study of Mus musculus with 10 samples.

Results

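The integrated stress response and the one-carbon pathway were followed here through 43 genes, listed by name as targets and effectors of the transcription factor ATF4, enzymes of serine synthesis and enzymes of the folate cycle. All 43 were among the 24972 genes of the tables, and 40 of them had enough reads to be compared among 14378 tested genes. The libraries were made from total RNA of perfused brain cortex of C57BL/6 males, 2.5 months old, and stood in 2 groups. The genotype was Atad3 nKO in 5 mice and Atad3 control in 5 littermates, and each library was 1 animal. What nKO stands for is not given in the labels, nor are a driver line or the deleted exons, so the cells in which the gene was lost are not known from them. Atad3a encodes a mitochondrial inner membrane ATPase. In whole cortex, fewer cells of a type and less RNA per cell cannot be told apart. The libraries held 14812639 to 24161361 estimated reads, and levels are given below as CPM (counts relative to the library's total, scaled by TMM between libraries) or, where genes are set side by side, as TPM (transcripts relative to the library's total, per length).

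In the integrated stress response, kinases that sense unfolded protein, amino acid shortage, double-stranded RNA, haem shortage or a signal from damaged mitochondria phosphorylate the initiation factor eIF2. Most translation then falls, while the mRNA of Atf4 is translated better because of its upstream reading frames, so that the protein can rise without any change of its mRNA. ATF4 binds C/EBP-ATF response elements and turns on amino acid transporters, amino acid synthesis, regulators that close the loop, and the enzymes that make serine and its one-carbon units. The one-carbon units pass from serine to tetrahydrofolate by parallel sets of enzymes in the cytosol and the mitochondrion, and serve purine, thymidylate and methionine synthesis. Damage to mitochondria in muscle and heart is known to raise this set of genes, with MTHFD2, PHGDH, PSAT1, ASNS, TRIB3, FGF21 and GDF15 among its usual reporters. In brain, serine is made mainly by astrocytes.

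The sequence that ATF4 reads is shown first, since many of the listed genes are known targets of this factor. RefSeq promoter windows of GRCm38.p6, the assembly of mm10, reached from 250 bases before to 50 bases after each start, and 38 members had 1 or more of them (44 windows). Both strands were searched for TGATGNAA, the core of the C/EBP-ATF response element. It was found in 9 of the 38 members (23.7%), in 4.51% of all 27025 genes with a window, and in 2.71% of the 11196 tested genes with a window. Each of the following stretches of 30 bases comes from a member that was tested, is written 5′ to 3′ on the strand that reads TGATGNAA, and has the match in capitals.
Atf3 (chr1:191183425-191183454, plus strand): cgcggacttggTGATGCAAgtgcgagaagg
Nupr1 (chr7:126625562-126625591, plus strand): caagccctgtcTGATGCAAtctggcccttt
Chac1 (chr2:119351038-119351067, minus strand): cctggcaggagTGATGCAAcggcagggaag
Vldlr (chr19:27216809-27216838, minus strand): gctaggagcgcTGATGCAActattgctgct
Slc7a11 (chr3:50443642-50443671, plus strand): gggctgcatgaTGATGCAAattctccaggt
Slc7a11 (chr3:50443661-50443690, minus strand): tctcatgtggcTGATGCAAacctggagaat
Asns (chr6:7693214-7693243, minus strand): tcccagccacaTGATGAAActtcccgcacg
Pycr1 (chr11:120643833-120643862, minus strand): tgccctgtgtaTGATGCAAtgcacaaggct
Slc7a11 held the motif on each strand, centred 44 and 62 bases before its start, and the stretches overlap. Asns held it 20 bases before its start. Trib3 and Fgf21 held it too but had too few reads to be tested. Psat1, Phgdh, Shmt2, Mthfd2 and Atf5 had a window without a match, which says only that these letters are not in that window. The 7 tested members with a match had log2 fold changes from -0.36 (Chac1) to 0.16 (Pycr1), 4 of them lower and 3 higher in nKO, with a median of -0.08. The 28 tested members with a window and no match split 14 lower and 14 higher, with a median of 0.01.

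Whether the labels hold was checked on the targeted gene. Atad3a read 26.6, 22.5, 24.5, 22.5 and 22.2 CPM in controls 1 to 5, and 11.5, 11.7, 14.4, 8.95 and 10.8 CPM in nKO 1 to 5. Every nKO library was below every control library. Atad3a fell by 1.04 on the log2 scale (SE 0.12; edgeR quasi-likelihood F test, Benjamini-Hochberg adjusted p = 0.00634).

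None of the 40 tested stress response and one-carbon genes passed the 5% threshold, and the smallest adjusted p among them was 0.82. In that fit 0.0139% of all tested genes were called in either direction, and 0.0139% were called as lower, these being Atad3a and Fam155a. DESeq2 and limma-voom also called 0 members. At an unadjusted edgeR p under 0.05 there were 3 members, Shmt1, Ahcy and Psph, all 3 of them lower in nKO. Over all tested genes 5.65% were under that p and 2.29% were under it and lower. No member had groups without overlap, against 1.38% of all tested genes in either direction and 0.675% with nKO lower. Among the 40, 18 were higher and 22 lower in nKO, with a median log2 fold change of -0.04, and over all tested genes 6866 were higher and 7512 lower, with a median of -0.01. The whole range ran from -0.56 (Shmt1) to 0.26 (Ddit4).

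The intervals give the size of change that these animals could have shown. The upper end of the 95% interval lay below a 2-fold rise for 40 of the 40 members, against 97.7% of all tested genes. It lay below a 1.5-fold rise for 33 members (82.5%, against 87.8% of all tested genes). The count below a 2-fold rise was 36 without control 2 and 39 with limma-voom. The whole interval lay within 1.5-fold either way for 27 members (67.5%, against 75.7% of all tested genes) and within 2-fold for 36 (90%, against 94.9%). Those 4 wider than 2-fold were Atf3, Chac1, Stc2 and Shmt1, each with few reads or large spread. The median SE was 0.15 for the members and 0.12 for all tested genes.

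**Figure D1:**
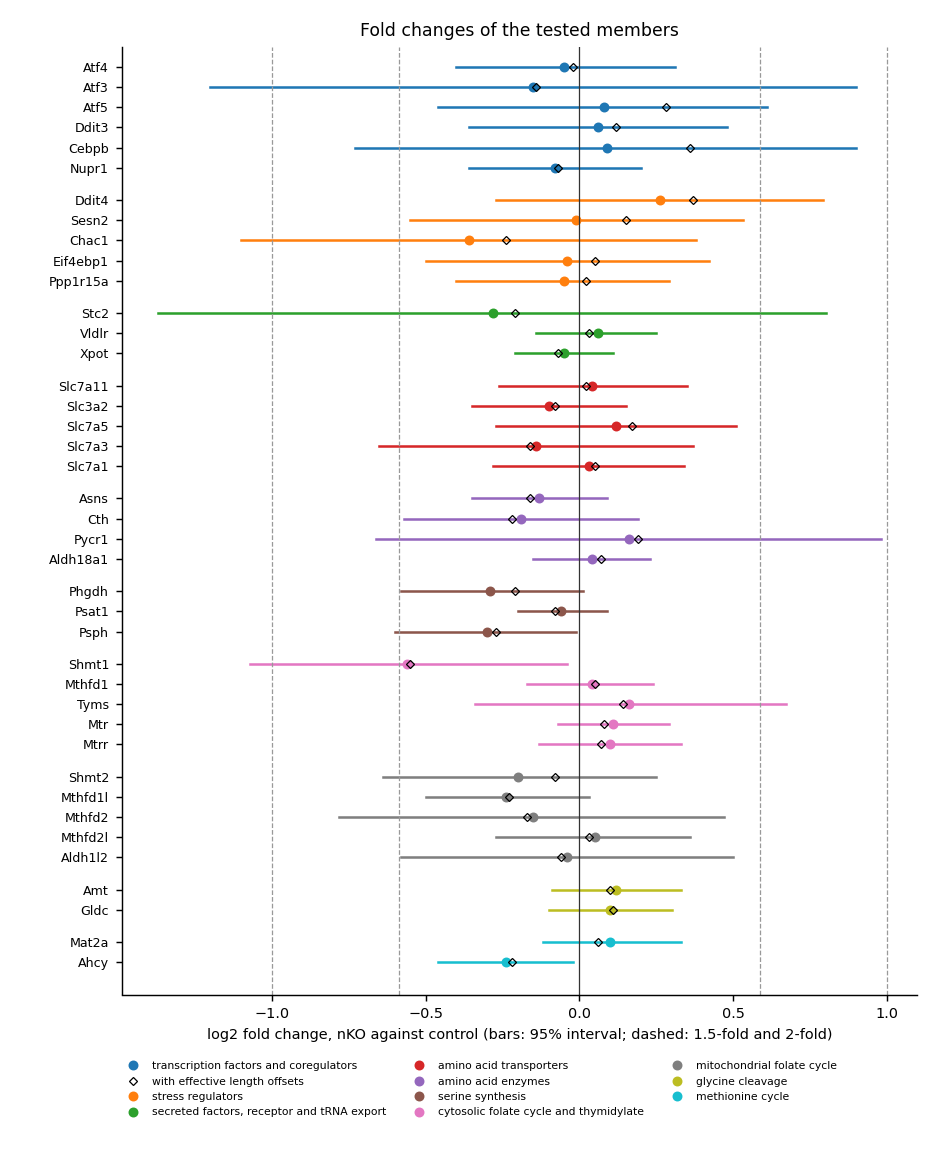
Log2 fold change of each tested member, nKO against control (points, coloured by role group), with its 95% interval (bars), dashed lines at 1.5-fold and 2-fold, and open diamonds for the same fit with effective length offsets. Every point lies between -0.56 and 0.26, and the bars of Psph, Shmt1 and Ahcy alone do not reach 0.

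No factor of the response differed past the threshold. With all libraries 3 of 6 had higher estimates in nKO, and without control 3 all 6 were lower, at -0.19 for Atf4, -0.38 for Atf3, -0.09 for Atf5, -0.05 for Ddit3, -0.04 for Cebpb and -0.12 for Nupr1. Other settings did not share this. With effective length offsets Atf5, Ddit3 and Cebpb were higher, at 0.28, 0.12 and 0.36, and Atf4, Atf3 and Nupr1 lower, at -0.02, -0.14 and -0.07. Atf4 (chr15:80255184-80257545), the central factor, read 131, 132, 71.3, 139 and 123 CPM in controls 1 to 5, and 96.5, 98.7, 131, 121 and 129 CPM in nKO 1 to 5. Control 3 was the lowest of all 10 libraries, and the other 4 controls lay close to nKO 3, 4 and 5. Between the genotypes Atf4 differed by -0.05 on the log2 scale (95% interval -0.40 to 0.31, SE 0.16; adjusted p = 0.978). By TPM Atf4 was at 238 ± 54.3 in controls and 244 ± 38.3 in nKO (SD, n = 5), the highest level among the members. Of its listed transcripts, that of 1446 bases carried 213 ± 64.3 TPM in controls and 231 ± 38.2 TPM in nKO (SD, n = 5). The transcript of 1729 bases carried 24.9 ± 32.3 TPM in controls and 12.7 ± 4.32 TPM in nKO (SD, n = 5). That spread among controls ran from 3.72 to 82.1 TPM, and a division of shared reads between near-identical transcripts enters it.

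Of the other 5 factors, with all libraries, Atf5, Ddit3 and Cebpb had higher estimates, which turned without control 3, and Atf3 and Nupr1 lower. Atf5, a relative of ATF4 that acts on mitochondrial stress genes, read 6.10, 3.93, 2.58, 6.50 and 5.09 CPM in controls 1 to 5, and 4.45, 3.25, 6.53, 5.47 and 5.67 CPM in nKO 1 to 5. Control 3 was again the lowest, and the log2 fold change of Atf5 was 0.08 (SE 0.25; adjusted p = 0.976). Atf3, an early-response repressor, was at 1.04 ± 0.568 CPM in controls and 0.917 ± 0.618 CPM in nKO (SD, n = 5), with 0.322 CPM in nKO 4 and 1.83 CPM in nKO 1. Its spread over the 10 libraries, a coefficient of variation of 57.6%, was the largest of the tested members, and its log2 fold change was -0.15 (SE 0.49; adjusted p = 0.976). Ddit3, which encodes the death-linked factor CHOP, lay between 6.54 (nKO 4) and 13.3 CPM (control 1), with a log2 fold change of 0.06 (SE 0.19; adjusted p = 0.978). Nupr1, a stress-induced coregulator, was the steadiest factor, at 5.55 ± 0.509 CPM in controls and 5.23 ± 0.715 CPM in nKO (SD, n = 5), and its log2 fold change was -0.08 (SE 0.13; adjusted p = 0.935). Cebpb, a partner that pairs with ATF4, read 3.32 CPM in control 1 and 0.618 to 2.39 CPM in the other libraries. The estimate for Cebpb was 0.09 (SE 0.38; adjusted p = 0.982) with all libraries, 0.65 (SE 0.29; adjusted p = 0.529) without control 1 and nKO 4, and from -0.12 (without control 5) to 0.55 (without control 1) with 1 library left out.

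Among the stress regulators, Ddit4 had the largest positive estimate of all members. Ddit4 (chr10:59949675-59951770), an inhibitor of mTORC1 also known as REDD1, read 16.9, 11.8, 6.35, 14.6 and 10.3 CPM in controls 1 to 5, and 16.7, 19.7, 11.6, 11.6 and 12 CPM in nKO 1 to 5. The groups overlapped: control 1 and nKO 1 were nearly equal, control 3 was the lowest and nKO 2 the highest. For Ddit4 the log2 fold change came to 0.26 (95% interval -0.27 to 0.79, SE 0.24; adjusted p = 0.87), and to 0.10 without control 3 and to 0.48 without control 1 and nKO 4. Chac1, a glutathione-degrading enzyme that responds strongly to ATF4, read 8.40, 3.64, 2.62, 3.04 and 4.99 CPM in controls 1 to 5, and 2.68, 2.13, 5.70, 3.05 and 4.03 CPM in nKO 1 to 5. Control 1 alone lay above every nKO library. The log2 fold change of Chac1 was -0.36 (SE 0.34; adjusted p = 0.872) with all libraries and 0.02 without control 1 and nKO 4.

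The remaining regulators had estimates near 0 with all libraries. Ppp1r15a encodes GADD34, the phosphatase subunit that reverses eIF2 phosphorylation, and it was at 9.88 ± 2.12 CPM in controls and 9.49 ± 1.36 CPM in nKO (SD, n = 5). The log2 fold change, -0.05 (SE 0.16; adjusted p = 0.973), turned to 0.02 with effective length offsets. Sesn2, a leucine sensor and mTORC1 inhibitor, had a log2 fold change of -0.01 (SE 0.25; adjusted p = 0.998), with 8.33 CPM in control 1 against 3.32 to 6.71 CPM elsewhere. Its estimate was 0.28 without control 1 and nKO 4, 0.15 with effective length offsets, and -0.17 without nKO 3. Eif4ebp1, which encodes the translation repressor 4E-BP1, had a log2 fold change of -0.04 (SE 0.21; adjusted p = 0.985). Trib3, a pseudokinase that feeds back on ATF4, was too low to test. It had 7, 7, 1, 7 and 6 counts in controls 1 to 5 and 3, 4, 5, 7 and 11 counts in nKO 1 to 5, which makes 28 counts among 94072093 reads and 30 among 83874113.

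The secreted reporters of mitochondrial stress were absent or nearly so. Fgf21, a hormone that tissues under mitochondrial stress release, had 0 counts in all 10 libraries, which allows up to 0.0169 CPM over all libraries (3 counts, counting error only). Gdf15, the other such hormone, had 4 counts over controls (1, 0, 0, 2 and 1) and 0 counts over nKO, which allows up to 0.0358 CPM in the nKO group. No ratio can be read from Gdf15 at this depth. Stc2, a secreted glycoprotein, was at 0.633 ± 0.322 CPM in controls and 0.493 ± 0.322 CPM in nKO (SD, n = 5), and its log2 fold change was -0.28 (SE 0.50; adjusted p = 0.945). Vldlr, a receptor for reelin and apolipoprotein E that ATF4 also targets, was at 159 ± 12.5 and 166 ± 20.9 CPM in controls and nKO (SD, n = 5), with a log2 fold change of 0.06 (SE 0.09; adjusted p = 0.932). Xpot, the tRNA exporter, was one of the tightest members, with 129 ± 8.62 and 125 ± 8.86 CPM (SD, n = 5) and a log2 fold change of -0.05 (SE 0.07; adjusted p = 0.929). Its 95% interval of -0.21 to 0.11 lay within 1.5-fold.

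The amino acid transporters were unevenly spread but without a difference past the threshold. Slc7a11 is the cystine and glutamate exchanger, and it pairs with the heavy chain encoded by Slc3a2. It read 98.6 CPM in control 1 and 119 to 170 CPM in the other libraries, with a log2 fold change of 0.04 (SE 0.14; adjusted p = 0.978). Slc3a2, the heavy chain, read 87.6, 86.7, 58.8, 81.0 and 86.9 CPM in controls 1 to 5, and 77.5, 87.3, 75.1, 63.3 and 71.2 CPM in nKO 1 to 5. Slc7a5, the light chain LAT1 for leucine and other large neutral amino acids, read 46.9, 39.5, 20.8, 44.9 and 42.6 CPM in controls 1 to 5, and 36.8, 41.4, 47.1, 43.7 and 41.4 CPM in nKO 1 to 5. In both of these genes control 3 stood below every other library. The log2 fold changes were -0.10 (SE 0.12; adjusted p = 0.906) for Slc3a2 and 0.12 (SE 0.18; adjusted p = 0.931) for Slc7a5, and without control 3 they were -0.19 and -0.05. The cationic amino acid carriers Slc7a3 and Slc7a1 had log2 fold changes of -0.14 (SE 0.23; adjusted p = 0.938) and 0.03 (SE 0.14; adjusted p = 0.981).

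Among the enzymes of amino acid synthesis, Asns, the asparagine synthetase that is a standard ATF4 reporter, was abundant, at 186 ± 16.8 TPM in controls and 172 ± 24.2 TPM in nKO (SD, n = 5). By library it read 123, 148, 138, 152 and 139 CPM in controls 1 to 5, and 107, 110, 137, 150 and 136 CPM in nKO 1 to 5. nKO 1 and nKO 2 were the lowest of the 10, and the other 3 nKO libraries lay among the controls. Asns had a log2 fold change of -0.13 (95% interval -0.35 to 0.09, SE 0.10; adjusted p = 0.86), and without control 1 and nKO 4 it was -0.24 (SE 0.09; adjusted p = 0.508). Leaving out 1 library put it between -0.20 (without nKO 4) and -0.073 (without nKO 1). Cth, the last enzyme of cysteine synthesis from methionine, was at 3.34 ± 0.558 and 2.92 ± 0.565 CPM (SD, n = 5), with a log2 fold change of -0.19 (SE 0.18; adjusted p = 0.87). Of the proline enzymes, Aldh18a1 had a log2 fold change of 0.04 (SE 0.09; adjusted p = 0.962) and Pycr1, at under 1.5 CPM in every library, one of 0.16 (SE 0.38; adjusted p = 0.966).

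All 3 enzymes of serine synthesis had lower estimates in nKO, and none passed the threshold. Phgdh (chr3:98313171-98339969) encodes the first and committed enzyme. It read 50.4, 35.3, 33.4, 40.6 and 43.3 CPM in controls 1 to 5, and 33.6, 36.3, 39.9, 24.6 and 32.1 CPM in nKO 1 to 5. Control 1 was the highest and nKO 4 the lowest, and the libraries between them were mixed. The estimate for Phgdh was -0.29 on the log2 scale (95% interval -0.58 to 0.01, SE 0.14; adjusted p = 0.82). Without control 1 and nKO 4 it was -0.11 (SE 0.10; adjusted p = 0.706), and with effective length offsets -0.21 (SE 0.08; adjusted p = 0.485).

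Psph (chr5:129765558-129787443), the phosphatase of the final step, read 14.6, 13.4, 11.6, 12.6 and 10.1 CPM in controls 1 to 5, and 9.64, 7.81, 11.6, 9.70 and 11.8 CPM in nKO 1 to 5. In nKO 1, 2 and 4 it was below every control, while nKO 3 and nKO 5 lay among the controls. Psph had a log2 fold change of -0.30 (95% interval -0.60 to -0.01, SE 0.14; adjusted p = 0.82). Psat1, the aminotransferase between these steps, was the steadiest member of all, with a coefficient of variation of 5.03% over the 10 libraries. It was at 93.8 ± 5.75 CPM in controls and 90.2 ± 2.64 CPM in nKO (SD, n = 5), with a log2 fold change of -0.06 (SE 0.07, 95% interval -0.20 to 0.09; adjusted p = 0.901). Per length the order in controls was Psat1 at 112 ± 8.44 TPM, Phgdh at 73.4 ± 5.43 TPM and Psph at 25.7 ± 2.91 TPM (SD, n = 5).

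**Figure D2:**
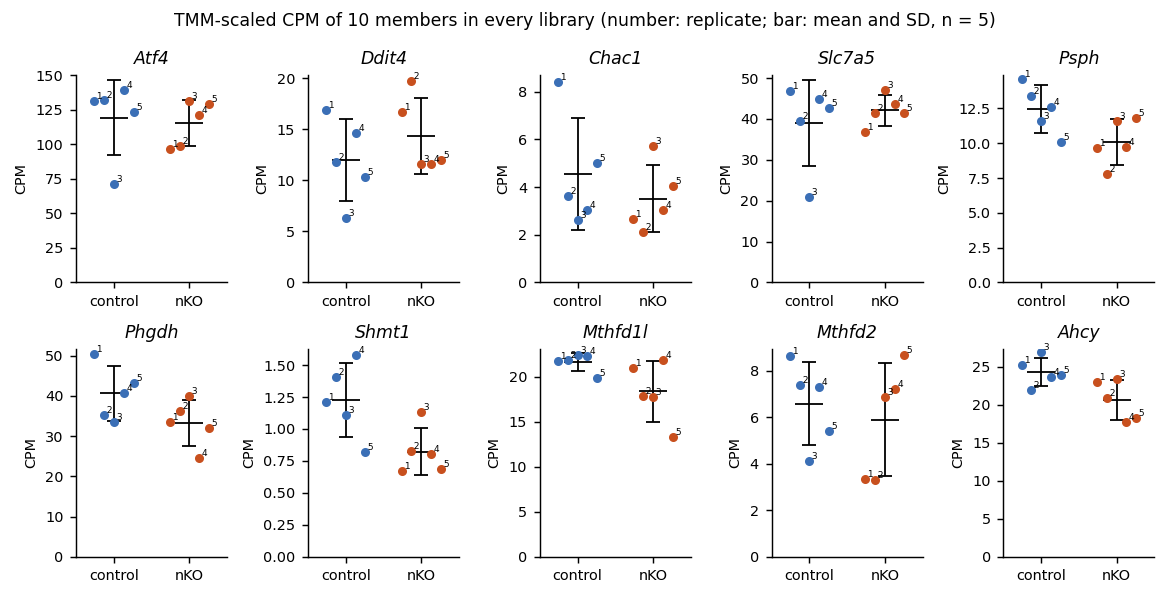
TMM-scaled CPM of 10 members in each library, from Atf4 to Ahcy, with controls in blue, nKO in orange, replicate numbers beside the points, and black bars for the mean and SD of 5 libraries. In every panel the groups overlap; control 3 is lowest for Atf4, Ddit4 and Slc7a5 (71.3, 6.35 and 20.8 CPM), and control 1 is highest for Chac1, Phgdh and Psph.

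In the cytosolic folate cycle 4 of 5 members had slightly higher estimates, and Shmt1 was the exception. Shmt1 (chr11:60788897-60811265), the cytosolic serine hydroxymethyltransferase, read 1.21, 1.41, 1.11, 1.58 and 0.823 CPM in controls 1 to 5, and 0.671, 0.828, 1.13, 0.804 and 0.684 CPM in nKO 1 to 5. Control 5 lay among the nKO libraries, and nKO 3 lay among the controls. Shmt1 had a log2 fold change of -0.56 (95% interval -1.07 to -0.04, SE 0.24; adjusted p = 0.82), which rests on 183 counts over the 10 libraries. Mthfd1, the cytosolic enzyme of 3 activities that interconverts the folate forms, had a log2 fold change of 0.04 (SE 0.10; adjusted p = 0.972). Mtr and Mtrr, the methionine synthase and the reductase that keeps it active, had log2 fold changes of 0.11 (SE 0.08; adjusted p = 0.86) and 0.10 (SE 0.11; adjusted p = 0.889). Tyms, the thymidylate synthase of dividing cells, was at 1.18 ± 0.374 CPM in controls and 1.32 ± 0.192 CPM in nKO (SD, n = 5), with a log2 fold change of 0.16 (SE 0.23; adjusted p = 0.923).

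In the mitochondrial folate cycle 4 of 5 members had lower estimates, with a median log2 fold change of -0.15. Mthfd2 is the dehydrogenase and cyclohydrolase that mitochondrial damage induces most sharply in other tissues. It read 8.64, 7.40, 4.14, 7.32 and 5.40 CPM in controls 1 to 5, and 3.35, 3.31, 6.88, 7.23 and 8.68 CPM in nKO 1 to 5. nKO 5 and control 1 were the highest, at nearly the same value, and nKO 1 and nKO 2 the lowest. For Mthfd2 the log2 fold change came to -0.15 (95% interval -0.78 to 0.47, SE 0.29; adjusted p = 0.951), so that a rise above 1.39-fold lies outside the interval with all libraries. Leaving out 1 library put the estimate between -0.33 (without nKO 5) and -0.0067 (without nKO 1), and the bound moves with it. Mthfd2l, its close relative in adult tissue, was at 7.56 ± 1.35 and 7.84 ± 1.01 CPM (SD, n = 5), with a log2 fold change of 0.05 (SE 0.15; adjusted p = 0.973), and of -0.10 without control 1 and nKO 4.

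Mthfd1l (chr10:3972892-4167081), the mitochondrial formate-releasing synthetase, read 21.7, 21.8, 22.4, 22.3 and 19.9 CPM in controls 1 to 5, and 21.0, 17.9, 17.8, 21.8 and 13.3 CPM in nKO 1 to 5. The controls stood close together, nKO 1 and nKO 4 were among them, and nKO 5 was the lowest. Mthfd1l had a log2 fold change of -0.24 (95% interval -0.50 to 0.03, SE 0.12; adjusted p = 0.82), and of -0.14 without nKO 5. Shmt2, the mitochondrial serine hydroxymethyltransferase, was at 8.05 ± 2.77 and 6.99 ± 1.04 CPM (SD, n = 5), with 12.5 CPM in control 1 and 5.04 CPM in control 3. Between the genotypes Shmt2 differed by -0.20 on the log2 scale (SE 0.21; adjusted p = 0.888), and by 0.02 without control 1. Aldh1l2, the mitochondrial enzyme that oxidises formyl-tetrahydrofolate and another ATF4 reporter, had a log2 fold change of -0.04 (SE 0.25; adjusted p = 0.985).

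The glycine cleavage members Amt and Gldc, which release a one-carbon unit from glycine and are typical of astrocytes in brain, had log2 fold changes of 0.12 (SE 0.10; adjusted p = 0.86) and 0.10 (SE 0.09; adjusted p = 0.87). In the methionine cycle, Mat2a, which makes S-adenosylmethionine, was at 187 ± 28.6 and 201 ± 18.3 CPM (SD, n = 5), with a log2 fold change of 0.10 (SE 0.10; adjusted p = 0.883). Ahcy (chr2:155059310-155074497), which clears the S-adenosylhomocysteine left after methylation, read 25.2, 21.9, 26.9, 23.7 and 23.9 CPM in controls 1 to 5, and 23.0, 20.9, 23.4, 17.7 and 18.3 CPM in nKO 1 to 5. nKO 4 and nKO 5 lay well below the rest, nKO 2 lay just below the controls, and nKO 1 and nKO 3 were above control 2. Ahcy had a log2 fold change of -0.24 (95% interval -0.46 to -0.02, SE 0.10; adjusted p = 0.82).

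Leaving out 1 library turned the direction of 19 of the 40 estimates, and turned or moved by over 1.5 times 35 of them, the other 5 being Phgdh, Psph, Shmt1, Mtr and Ahcy. Those members under an unadjusted p of 0.05 also depended on which libraries were used. Leaving out 1 library gave between 0 and 4 such members, with 0 without control 1, without control 4 or without nKO 2. Control 1 and nKO 4 were the far ends of the first principal component of all libraries (33.6% of the variance). With both left out, 4 members were under that p, and they were others: Asns and Mthfd1l lower, at -0.24 and -0.31, and Cebpb and Ddit3 higher, at 0.65 and 0.32. Psph, Shmt1 and Ahcy then had log2 fold changes of -0.24, -0.55 and -0.18 with SEs of 0.14, 0.29 and 0.10, and none of these was under that p. The adjusted p of every member was at least 0.485 under each of the 18 alternatives.

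Control 1 and nKO 4 also differed from the rest in the effective lengths that the quantification assigned to the members' transcripts, which set how many reads a given level should yield. Of the 40 tested members, 20 had their longest effective length in control 1 and 25 their shortest in nKO 4. Control 1 also held the shortest for 13 members, and nKO 2 the longest for 14. The ratio of the longest to the shortest had a median of 1.13 among members and 1.14 among all tested genes, and it reached 2.25 for Cebpb, 2.09 for Atf5, 1.84 for Sesn2, 1.63 for Ddit4 and 1.61 for Shmt2. With these lengths as offsets in the fit, 21 members were higher and 19 lower, with a median log2 fold change of 0.02. Ddit4 was then at 0.37 (SE 0.20), Cebpb at 0.36 (SE 0.26) and Atf5 at 0.28 (SE 0.26). Why effective lengths differed between libraries was not tested. Across genes, none of them an independent replicate, longer transcripts had higher log2 fold changes, with Spearman's rho of 0.27 over the tested members and 0.30 over all tested genes, and the median length was 2274 bases for members and 2994 bases for all. The part of length in the members' values was not tested.

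Ratios within a library compare isozymes and subunits without the scaling between libraries. Counting error stays in them, most of all for Shmt1, with 183 counts over the 10 libraries. Effective lengths, which enter TPM, stay in them too. The longest was 1.61 times the shortest for Shmt2 and 1.12 times for Shmt1, and their part in the ratios was not tested. The mitochondrial to cytosolic ratio Shmt2 to Shmt1 was 9.45, 6.16, 5.49, 5.08 and 11.5 by TPM in controls 1 to 5, and 10.9, 8.81, 8.37, 12.3 and 10.1 in nKO 1 to 5. Controls 2, 3 and 4 lay below every nKO library, and controls 1 and 5 lay among them. The mean log2 difference, nKO minus control, was 0.49 (exact two-sided permutation test, p = 0.103, adjusted over the 4 ratios p = 0.19; the smallest p of this design is 0.00794). The second such ratio, Mthfd1l to Mthfd1, averaged 0.541 ± 0.0858 over controls and 0.44 ± 0.0971 over nKO (SD, n = 5), a log2 difference of -0.31 (exact permutation test, p = 0.143, adjusted p = 0.19) that was -0.18 without nKO 5. Both hydroxymethyltransferases had lower estimates in nKO, and the cytosolic one the lower, whereas of the formate enzymes the mitochondrial one was lower.

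The isozyme ratio Mthfd2l to Mthfd2 was above 2 in control 3, nKO 1 and nKO 2, with 2.40, 2.43 and 2.75, and between 0.705 and 1.49 in the other libraries. Its log2 difference was 0.28 (exact permutation test, p = 0.532, adjusted p = 0.532). The heavy to light chain ratio Slc3a2 to Slc7a5 averaged 2.73 ± 0.466 over controls and 2.26 ± 0.428 over nKO (SD, n = 5), a log2 difference of -0.28 (exact permutation test, p = 0.127, adjusted p = 0.19).

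**Figure D3:**
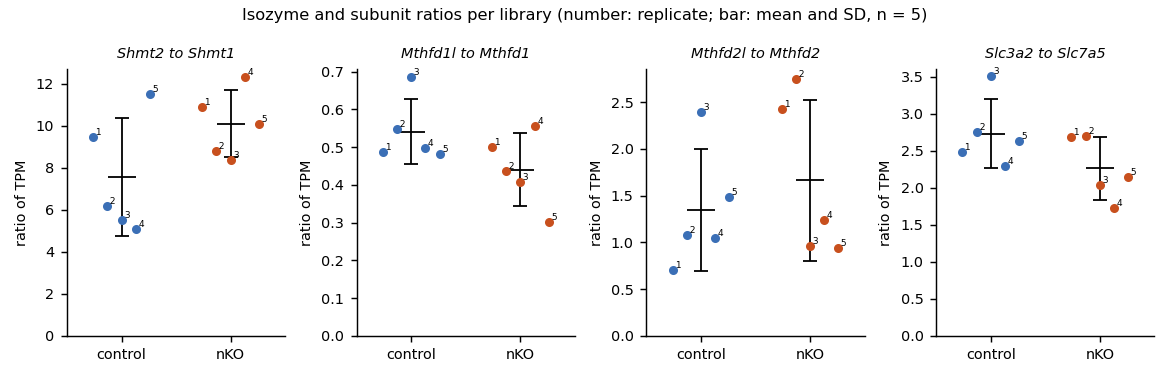
Ratios of TPM within each library for 4 pairs of members (control blue, nKO orange, replicate numbers beside the points, bars for the mean and SD of 5 libraries). The groups overlap in all 4 panels, with Shmt2 to Shmt1 from 5.08 to 11.5 in controls and from 8.37 to 12.3 in nKO.

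Genes that feed the response or use its products were followed with a list of 52 that holds none of the members. Of these, 44 were tested, 24 were higher and 20 lower, the median log2 fold change was 0.01, none passed the 5% threshold and 0 had an unadjusted edgeR p under 0.05. All 4 eIF2 kinases had higher estimates, from 0.04 to 0.19, and Eif2ak1, the haem-regulated kinase that relays mitochondrial stress, was at 49.7 ± 8.22 and 56.2 ± 2.77 CPM (SD, n = 5), with a log2 fold change of 0.18 (SE 0.11; adjusted p = 0.826) that was 0.095 without control 3. Oma1 and Dele1, the protease and the messenger of that relay, were at -0.03 (SE 0.13) and 0.01 (SE 0.13). Of the eIF2, eIF2B and phosphatase genes, 5 of 10 were higher, and Eif2b3, a subunit of the exchange factor, had the smallest p there, with a log2 fold change of 0.25 (SE 0.13; adjusted p = 0.82). Nfe2l2, which encodes the antioxidant factor NRF2, was at 0.18 (SE 0.10; adjusted p = 0.82).

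Of the other folate enzymes and carriers, 6 were higher and 7 lower. Aldh1l1, the cytosolic formyl-tetrahydrofolate dehydrogenase that also marks astrocytes, was at 69.5 ± 8.01 and 60.1 ± 8.04 CPM (SD, n = 5), with a log2 fold change of -0.21 (SE 0.11; adjusted p = 0.82). Among genes of serine and glycine use and transport, 5 of 8 were higher, and the amino acid carrier Slc38a2 was at 0.13 (SE 0.08; adjusted p = 0.826). Of the methionine, betaine and transsulfuration genes 4 of 5 tested were lower, and Cbs, which condenses serine with homocysteine, was at -0.26 (SE 0.12; adjusted p = 0.82). Bhmt, Bhmt2, Gnmt, Dmgdh and Mat1a of the same list, typical of liver, were too low to test, at means of at most 0.396 CPM.

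Control 3, the most deeply sequenced library, was often the lowest for genes of the stress response. Among the 40 tested members it was the lowest of the 10 libraries in 14, against 18.6% of all tested genes, and among 11 factors and regulators it was the lowest in 6. Without it 11 members were higher and 29 lower, with a median log2 fold change of -0.11. Control 1 was the highest library in 12 of 40, against 25.6% of all tested genes. By CPM, members varied more between libraries than all tested genes, with a median coefficient of variation of 18% against 13.7%. The largest medians were in stress regulators (29.3%), mitochondrial folate enzymes (27.3%) and factors (24.9%). Members and all tested genes were not matched for level, and counting error is larger in genes with few reads. CPM takes no account of effective length. The parts of level and of effective length in this spread were not tested. What sets control 3 and control 1 apart was not tested.

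**Figure D4:**
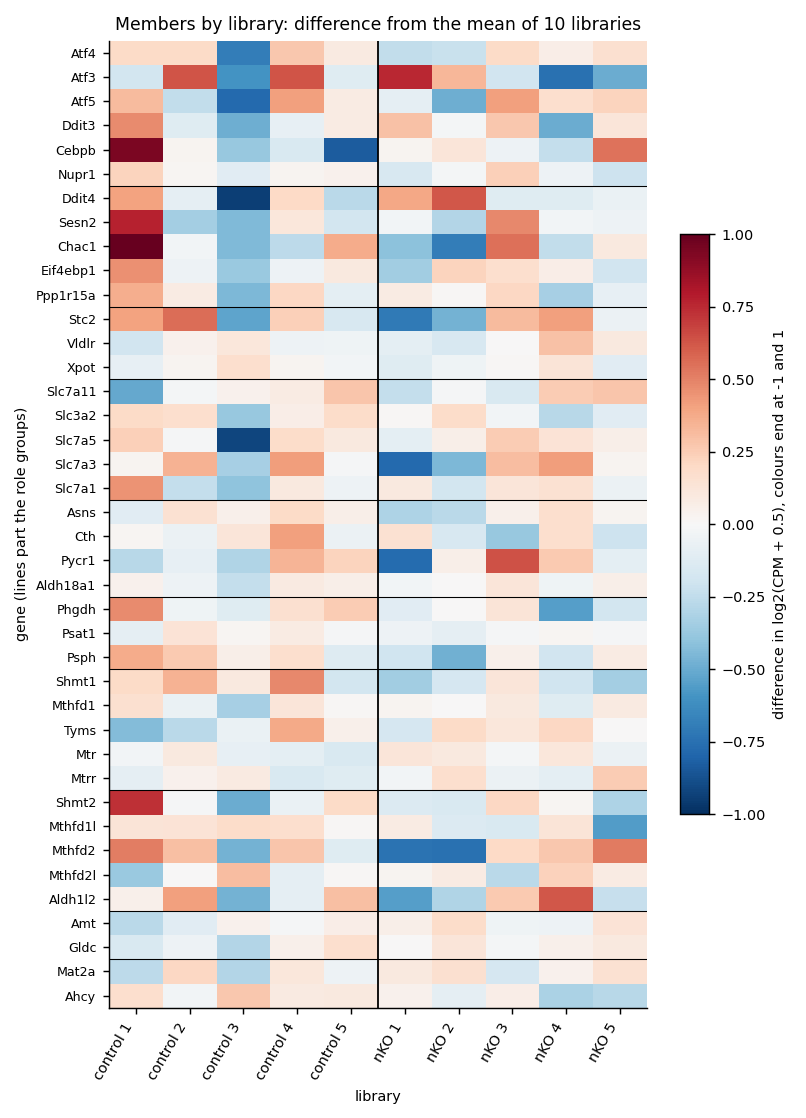
Difference of each tested member from its mean over the 10 libraries in log2(CPM + 0.5), with libraries in columns, genes in rows and lines between role groups and genotypes. Control 3 is blue in most factors and regulators (-0.69 for Atf4, -0.94 for Ddit4), and no row changes colour cleanly at the line between the genotypes.

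How the members followed Atf4 from library to library was described by Pearson's r of log2(CPM + 0.5) over the 10 libraries, a measure chosen after seeing the data. The closest were Slc7a5 (r = 0.89, Spearman's rho = 0.62), Atf5 (0.85, 0.66), Aldh18a1 (0.83, 0.50), Stc2 (0.79, 0.72), Mthfd2 (0.79, 0.73), Mthfd1 (0.76, 0.61) and Slc7a3 (0.73, 0.67). The permutation p of r for Slc7a5 was 0.00394, and adjusted over all 14377 genes set beside Atf4 it was 0.752, as it was for these 7 members. No gene of the 14377 passed 5% by r or by rho, and the adjusted p of rho for these members was 1. After control 3 and nKO 1, the libraries farthest from the median of Atf4, were left out, r was 0.34 for Slc7a5, 0.38 for Aldh18a1 and 0.42 for Mthfd1, so that these rest on those libraries. It was 0.88 for Mthfd2, 0.79 for Slc7a3, 0.76 for Atf5 and 0.73 for Stc2 over the 8 libraries left. Among those 8, nKO 2 stood apart in Atf4, at 98.7 CPM against 121 to 139 CPM in the others. It was also the lowest of the 8 for Mthfd2 (3.31 CPM), Slc7a3 (6.57 CPM), Atf5 (3.25 CPM) and Stc2 (0.237 CPM). How far these r values rest on nKO 2 was not tested.

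Of the 39 other tested members, 16 (41%) had an r of at least 0.5 with Atf4, against 10.3% of all tested genes. Over the 8 libraries it was 9 (23.1%) against 6.68%, and these were partly other members. Psph went from 0.41 to 0.88, Asns from 0.41 to 0.73, Shmt1 from 0.29 to 0.57 and Psat1 from 0.25 to 0.54. Psph and Asns were also lowest of those 8 libraries in nKO 2, at 7.81 and 110 CPM, while Shmt1 and Psat1 were not. Slc7a5, Aldh18a1, Mthfd1, Aldh1l2, Ppp1r15a, Shmt2, Slc7a1, Eif4ebp1, Sesn2, Pycr1 and Slc3a2 fell below 0.5. Slc7a11, Vldlr, Xpot and Phgdh, which are listed in the same programme, had r of 0.04, -0.06, -0.36 and 0.28. Their rho was -0.08, -0.19, 0.03 and 0.50, so that Phgdh was closer by rank. Mthfd2l had the lowest r, at -0.64. Libraries share depth, scaling and tissue makeup, and what part these have in r was not tested.

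**Figure D5:**
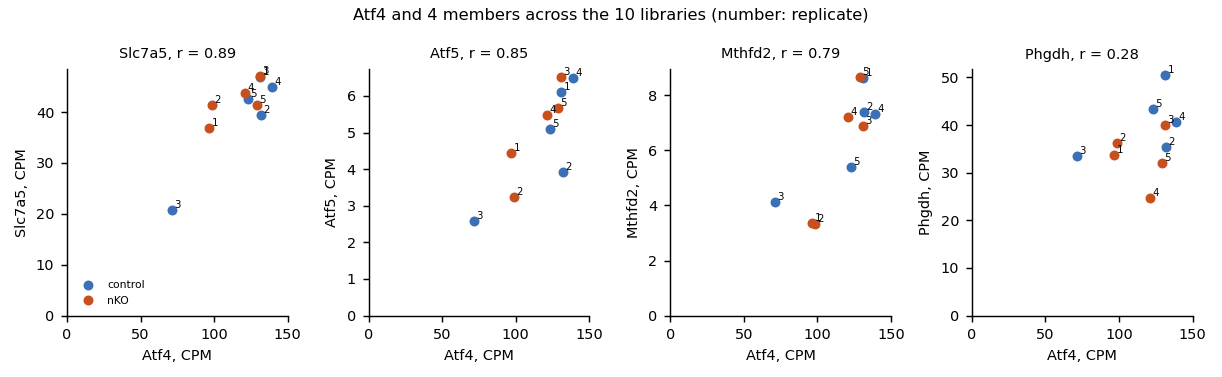
CPM of Slc7a5, Atf5, Mthfd2 and Phgdh against CPM of Atf4 in each library (control blue, nKO orange, replicate numbers beside the points; r is of log2(CPM + 0.5)). Control 3 is at the far left in every panel, with 71.3 CPM of Atf4, and the genotypes are mixed along each axis.

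The makeup of the tissue was followed with marker genes, whose summed CPM is led by the most abundant marker. All 6 neuronal markers were present in every library, and their sum was 5257 to 6429 CPM in controls and 6086 to 6738 CPM in nKO. All 6 astrocyte markers were present, and their sum was 5143 to 5599 CPM in controls and 5659 to 6480 CPM in nKO, without overlap. Only the glutamate carrier Slc1a2 among these 6 had a higher estimate, at 0.24 (SE 0.07; adjusted p = 0.82), while the gap junction gene Gja1 was at -0.18 (SE 0.06; adjusted p = 0.82). Serine synthesis and glycine cleavage are enriched in astrocytes, and the part of the astrocyte markers in those values was not tested. Marker sums of oligodendrocytes, their precursors, microglia, endothelial cells, mural cells and meningeal fibroblasts overlapped between the groups. Of the endothelial markers 2 were higher and 2 lower, from -0.52 for Cldn5 (SE 0.26; adjusted p = 0.82) to 0.32 for Flt1 (SE 0.10; adjusted p = 0.82). The fibroblast marker Col1a1 was at -0.87 (SE 0.48; adjusted p = 0.826), with 45.7 CPM in control 1. Choroid plexus markers summed to at most 1.70 CPM in controls and 0.831 CPM in nKO, with Ttr and Kcne2 at 0 in some libraries. Blood cell markers summed to 0.966 to 22 CPM in controls and 1.64 to 5.99 CPM in nKO, with Hbb-bs and Hba-a1 at 0 in some libraries.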

How the data were processed

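Cortex RNA of 5 control and 5 Atad3 nKO mice was made into stranded total RNA libraries (fragmented for 6 minutes), per the labels' protocols, and grouped by the genotype label. The authors deposited, per library, Salmon tables that hold estimated counts, TPM and effective lengths, per the file headers. As tools and build, bcl2fastq, Salmon, DESeq2 and mm10 are listed per the submitters' processing notes; versions, annotation release and strand setting are not given in the sources used here. Quantification by Salmon divides reads shared by near-identical sequences among them, so values of such transcripts or gene copies depend on that division. A further deposited table of 22 genes held no member and was not used.

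Estimated counts were rounded. filterByExpr (minimum count 10, minimum total 15) kept 14378 genes and at least 99.9% of each library's counts. Groups were compared over all these genes with edgeR 4.0.16 in R 4.3.3 (TMM, robust quasi-likelihood F test, Benjamini-Hochberg, 5%), SE being the estimate over the square root of F. On simulated counts of 14276 genes for this comparison, the fit recovered 49 of 100 at a true change of 1.5-fold and 89 of 100 at 2-fold, with 10 false calls. The changed genes were drawn above a floor of mean CPM, and they outnumbered the genes called in the data. Counts were drawn independently for each gene and library, without structure shared between libraries. These shares therefore need not hold for the data or for members with few reads. Ratios of TPM were tested by exact permutation and likeness to Atf4 with 100000 permutations. Alternatives were DESeq2 1.42.0, limma-voom (limma 3.58.1), other scalings and filters, effective length offsets and libraries left out. No fit dropped or imputed a library otherwise. Positions and promoter sequences came from RefSeq (GRCm38.p6). In 35 of 44 member windows the bases after the start lay in a GENCODE transcript of the gene on the stated strand, and in 0 on the other.

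The members and lists were chosen with earlier results of these data known. Named in full were, per role group, the 3 tested members with the smallest p, the ratio pairs, the gene with the smallest p in each part of the pathway list, and Atad3a; others were named after their values were seen. Neither batch nor lane is labelled, and no within-batch value can be given.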

Additional observations from a re-analysis of the deposited data

Results flagged for a closer look

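In a group of 5 libraries, a library was marked when its gap to the nearest other exceeded 0.71 of the group's range. This held for 4 of 80 groups (2 per tested member), which is 5%, against 8.32% over all tested genes, and chance marks about 1 in 20. Control 3 was the library apart in 3 of them, as the lowest control for Atf4 (71.3 CPM), Slc3a2 (58.8 CPM) and Slc7a5 (20.8 CPM). nKO 3 was the highest nKO library for Sesn2 (6.71 CPM).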

How the results depend on the processing

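No member passed 5% under any of the 18 alternatives, and the smallest adjusted p of a member was 0.485. Over all genes, 5 were called by the DESeq2 Wald test (Atad3a, Fam155a, Dusp11, Malat1 and Slc18b1) against 2 by edgeR. The count of members with higher estimates was 18, and leaving out 1 library gave 11 (without control 3) to 22 (without nKO 1). Of 842 log2 fold changes of 47 genes (the 40 tested members, 6 of the pathway list and Atad3a) under the alternatives, 785 kept their direction and 57 reversed, and 26 genes had no reversal. With 1 library left out, Atf4 ran from -0.19 to 0.014, Aldh18a1 from -0.015 to 0.069, Atf5 from -0.091 to 0.21, Ddit3 from -0.052 to 0.21, Mthfd1 from -0.037 to 0.081, Slc7a1 from -0.054 to 0.17, Slc7a5 from -0.046 to 0.19 and Eif4ebp1 from -0.15 to 0.11, each lowest without control 3. Mthfd2l ran from -0.032 to 0.15, Ppp1r15a from -0.16 to 0.041, Shmt2 from -0.33 to 0.02, Sesn2 from -0.17 to 0.27 and Slc7a11 from -0.061 to 0.12, each reversed without control 1. Atf3 ran from -0.56 to 0.08, Cebpb from -0.12 to 0.55, Vldlr from -0.02 to 0.10, Slc7a3 from -0.30 to 0.0058, Pycr1 from -0.14 to 0.39 and Aldh1l2 from -0.27 to 0.081. With control 1 and nKO 4 left out together, chosen after seeing the data, Chac1 was at 0.018, Eif4ebp1 at 0.081, Mthfd2l at -0.10, Ppp1r15a at 0.11, Pycr1 at -0.015, Sesn2 at 0.28, Slc7a11 at -0.13, Tyms at -0.0057 and Vldlr at -0.061. Effective length offsets put Ppp1r15a at 0.022, Sesn2 at 0.15 and Eif4ebp1 at 0.047, and limma-voom put Sesn2 at 0.067. Of the 57 reversed values, 54 lay within 1 SE of 0, the others being of Sesn2 (without control 1, and without control 1 and nKO 4) and Slc7a11 (without control 1 and nKO 4), and the cause was not tested. No ratio reversed or passed 5%. No paired analysis was possible because the labels give no pairing of animals. Depth limited Trib3, Fgf21 and Gdf15.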

Other observations

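Among the 43 members, 17 had more than 1 listed transcript and 26 had 1. The shares of their transcripts were not tested, and they depend on how shared reads were divided. Pycr1 was the only member whose listed transcripts did not sum to its gene count, with 118 reads against 144 counts over the 10 libraries. For Slc7a1, which carries arginine and lysine, the transcript of 7063 bases was at 0.902 ± 1.36 TPM in the 5 control libraries and at 5.04 ± 3.89 TPM in the 5 nKO libraries (SD). That of 7179 bases was at 10.3 ± 3.02 and 7.05 ± 2.86 TPM, with libraries of the groups overlapping for each. For Atf5, a non-coding record of 1816 bases carried more on average than the coding one, at 9.75 ± 6.33 TPM in controls and 14.5 ± 3.64 TPM in nKO. In controls the non-coding record ran from 0 to 16.5 TPM and the coding one from 1.69 to 7.82 TPM. The order thus did not hold in every control. For Cebpb, reads were split among records of the same length, 1518 bases, of which 1 had 0 reads in all libraries. For Mat2a, the transcripts of 3390 and 2805 bases stood at 70.4 ± 12.8 and 85.0 ± 12.8 TPM in controls, and at 82.2 ± 6.18 and 85.8 ± 11.2 TPM in nKO.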
